A study of Mus musculus with 6 samples.

Results

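Genes of the muscle contractile machinery and of the neuromuscular junction were examined in the proximal hindlimb bud of wild-type and Lmx1b-null mouse embryos. The set held 36 genes, chosen by name for their roles, with earlier results of these data known. All 36 were matched among 18193 genes with a probe set of 1 symbol. Wild-type and Lmx1b -/- embryos, both of the 129Sv strain, were taken at E11.5 (embryonic day), and each of the 3 pools per genotype joined the 6 hindlimb buds of 3 embryos, cut to about 500 µm of proximal tissue. How the Lmx1b allele was inactivated is not stated in the labels used. The brighter Lmx1b probe set had a change of -3.45 in null pools (limma adjusted p = 0.00054), and the dimmer one, of unknown position in the gene, had a change of -0.01.

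Skeletal muscle of the limb comes from somite cells that migrate into the bud, switch on the MyoD family of transcription factors and then fuse into multinucleate fibres. Fibres build sarcomeres, in which myosin thick filaments pull on actin thin filaments, and calcium binding to troponin sets the contraction going. Embryonic fibres first use embryonic and cardiac-type isoforms of these proteins, among them cardiac actin and embryonic myosin. Acetylcholine receptors of the fibre become gathered under the nerve ending, for which MUSK and rapsyn are needed. LMX1B specifies dorsal fate in limb mesenchyme and is not itself a muscle factor.

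Values are log2 RMA values, a summary of each probe set after normalization between arrays. A change is the null mean minus the wild-type mean, and its standard error (SE) comes from limma. Pool values are listed in the order of the pool numbers, wild-type pools before null pools. Because no detection calls were used here, a background bound was set at 4.26, the 95th percentile of the wild-type means of 44 probe sets for olfactory receptors, genes a limb bud is not known to use. Probe sets differ in how well they bind, so a value under the bound does not show that a gene is silent, and levels of different genes are not ranked. In tissue pieces, fewer muscle cells and less RNA per muscle cell cannot be told apart. Median values of the arrays lay between 4.96 and 4.99, and arrays correlated at 0.993 to 0.997 over all probe sets. All 8 limb mesenchyme markers were above background, with a mean level of 9.72 to 9.84 in wild-type and 9.66 to 9.77 in null pools.

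Sequence just upstream of the start site was read from RefSeq (build GRCm38.p6, reference strain C57BL/6J) for 4 known motifs. A window of 250 bases was found for 29 of the 36 genes, some with several starts. The letters CAGCTG, an E-box form that MyoD family proteins are known to bind, were present for 13 of 29 (44.8%) against 14.72% of all 27025 genes with a window. The looser E-box CANNTG, which includes CAGCTG, was present for 25 of 29 (86.2%) against 69.3%. The CArG box, the site of serum response factor, was present for 4 (Acta1, Actc1, Ldb3 and Myom1; 13.8% against 1.62%), and the MEF2 box for 4 (Casq2, Klhl41, Myh8 and Ttn; 13.8% against 3.42%). All 4 motifs read the same on both strands. A match describes letters only, and its relation to the levels of the genes over the pools was not tested.

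The 160 bases before the start site are shown for the cardiac and skeletal actin genes and for 2 acetylcholine receptor subunit genes, as examples of the CArG box and of CAGCTG, in capitals and 5′ to 3′ on the gene's strand. Actc1 lies on the minus strand at chr2:114052876-114053035 and Acta1 on the minus strand at chr8:123894776-123894935. Chrna1 lies on the minus strand at chr2:73580339-73580498 and Chrng on the plus strand at chr1:87205651-87205810.
Actc1: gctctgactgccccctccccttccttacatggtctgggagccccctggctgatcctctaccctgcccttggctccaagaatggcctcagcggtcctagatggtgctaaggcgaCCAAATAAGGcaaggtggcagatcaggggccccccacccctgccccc
Acta1: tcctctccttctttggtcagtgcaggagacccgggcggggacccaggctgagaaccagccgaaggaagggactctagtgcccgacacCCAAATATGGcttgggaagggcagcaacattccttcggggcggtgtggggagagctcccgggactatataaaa
Chrna1: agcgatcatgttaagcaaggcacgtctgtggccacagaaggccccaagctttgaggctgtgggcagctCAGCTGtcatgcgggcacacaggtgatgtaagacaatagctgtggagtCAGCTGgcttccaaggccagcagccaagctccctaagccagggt
Chrng: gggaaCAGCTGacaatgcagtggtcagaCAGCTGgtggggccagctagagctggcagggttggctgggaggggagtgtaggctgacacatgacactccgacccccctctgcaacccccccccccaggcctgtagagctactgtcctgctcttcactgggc
The CArG box began 47 bases before the start of Actc1 and 73 bases before that of Acta1. In Chrna1 CAGCTG began 92 and 44 bases upstream, and in Chrng 155 and 132 bases upstream.

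Of the 36 genes, 23 were above the bound in every wild-type pool, or 63.9%, against 67.0% of all 18193 genes and 57.6% of all probe sets. All 23 were also above it in every null pool. By role, 2 of 3 thin filament genes, 5 of 7 thick filament genes, 6 of 7 troponin genes, 2 of 6 Z-disc, M-line and giant protein genes and 2 of 3 calcium and energy genes were above it. So were 3 of 6 receptor and junction genes and 3 of 4 membrane, fusion and filament genes. The nearest values on either side were those of Tnnt2, inside with its lowest wild-type pool at 4.29, and Ryr1, outside with its lowest at 4.21.

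Below the bound in every pool were Neb, the giant thin filament ruler nebulin (means of 2.93 in wild type and 2.81 in null pools), Myh7 and Myh8, the slow and perinatal myosin heavy chains (3.24 and 3.48; 2.57 and 2.51), and fast troponin T, Tnnt3 (3.41 and 3.39). Ldb3, a Z-disc protein, stood at 3.73 and 3.84, Myom2 of the M-line at 2.85 and 2.94, and Klhl41, a kelch protein of the sarcomere, at 3.75 and 3.63. The junction genes Rapsn (4.05 and 4.09) and Musk (3.88 and 3.99) and Cav3, the muscle caveolin (3.45 and 3.52), were also below it in every pool. Myom1, Ryr1 and Chrnb1 straddled it. The M-line gene Myom1 had means of 4.27 and 4.27. Ryr1, the calcium release channel, read 4.21, 4.87 and 4.66 against 5.17, 4.70 and 4.66. The receptor beta subunit Chrnb1 read 4.09, 4.49 and 4.38, then 4.43, 4.67 and 4.43. For Ryr1 and Chrnb1, the only value under the bound was that of wild-type pool 1. Slow and fast forms were found on both sides of the bound: the fast troponins Tnnc2 and Tnni2 were above it and fast Tnnt3 below, and slow troponin Tnnt1 was above it and slow myosin Myh7 below.

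Actc1, cardiac alpha-actin and the main sarcomeric actin of early embryonic muscle, read 7.34, 8.90 and 8.33 in the wild-type pools against 8.90, 8.71 and 8.91 in the null pools. Wild-type pool 1 was low and wild-type pool 2 lay among the null pools, so the groups overlapped. With means of 8.19 ± 0.79 and 8.84 ± 0.11 (SD, n = 3 each), Actc1 had the largest change of the 36 genes, 0.65 with an SE of 0.33 (adjusted p = 0.584, limma). Skeletal alpha-actin, Acta1, read 5.08, 5.92 and 5.59 against 5.51, 4.90 and 6.03, with a change of -0.05 (SE 0.30). Its lowest and highest values were both in null pools.

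Among thick filament genes, embryonic myosin heavy chain Myh3 read 4.84, 6.27 and 5.47 in wild-type pools and 5.56, 5.49 and 6.10 in null pools. The 3 wild-type pools spanned 2.69-fold and enclosed all null values, and the change was 0.19 (SE 0.33). The essential light chain Myl1 read 5.76, 7.21 and 6.25 against 6.79, 6.39 and 6.97, a change of 0.31 (SE 0.33). The fast regulatory light chain Mylpf read 5.90, 7.12 and 6.50 against 6.76, 6.55 and 7.08, a change of 0.29 (SE 0.28). In both light chain genes wild-type pool 1 was the lowest of 6 and wild-type pool 2 the highest. Myl4, the embryonic and atrial light chain, read 4.98, 5.08 and 5.15 against 4.95, 5.06 and 5.34. The dimmer Myl4 probe set read 4.08, 4.79 and 4.31 against 4.50, 4.10 and 4.93, so the pools varied more there than in the brighter one. Mybpc1, the slow myosin-binding protein C, read 5.89, 6.00 and 5.86 against 6.05, 5.86 and 6.32, a change of 0.16 (SE 0.12). The other Mybpc1 probe sets, also above the bound, had changes of 0.08 and 0.07 and were lowest in wild-type pool 3.

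In the probe sets used, the 6 troponin genes above background were also lowest in wild-type pool 1. Tnnt1, Tnnc1 and Tnnc2 were highest in wild-type pool 2. Tnnt1, slow troponin T, read 6.42, 7.68 and 7.22 in wild-type pools and 7.52, 7.35 and 7.53 in null pools, a change of 0.36 (SE 0.27). Cardiac troponin T, Tnnt2, read 4.29, 5.38 and 4.96 against 5.34, 5.25 and 5.45, a change of 0.47 with an SE of 0.24 (adjusted p = 0.575, limma). Wild-type pools spanned 2.13-fold in Tnnt2, whereas the null pools lay within 0.20 on the log2 scale. Another Tnnt2 probe set, of like brightness, read 4.63, 5.40 and 4.60 against 5.39, 5.14 and 5.36. There wild-type pool 3 was the lowest, nearly level with wild-type pool 1. The calcium-binding subunit genes followed, with Tnnc1, the slow and cardiac form, at 5.49, 6.68 and 6.06 against 6.11, 6.01 and 6.26. The fast form Tnnc2 read 4.63, 6.15 and 5.37 against 5.53, 5.50 and 5.94. Their changes were 0.05 (SE 0.25) and 0.27 (SE 0.33), and in both the null values lay inside the wild-type range. The inhibitory subunit gene Tnni1 read 5.31, 5.92 and 5.72 against 5.81, 5.64 and 6.06. Tnni2, the fast inhibitory subunit, read 5.64, 6.05 and 5.81 against 6.06, 6.19 and 5.80 in a probe set whose name marks possible cross-hybridisation. The other Tnni2 probe sets, at means of 3.98 and 2.67 over the 6 arrays, were below the bound.

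**Figure D1:**
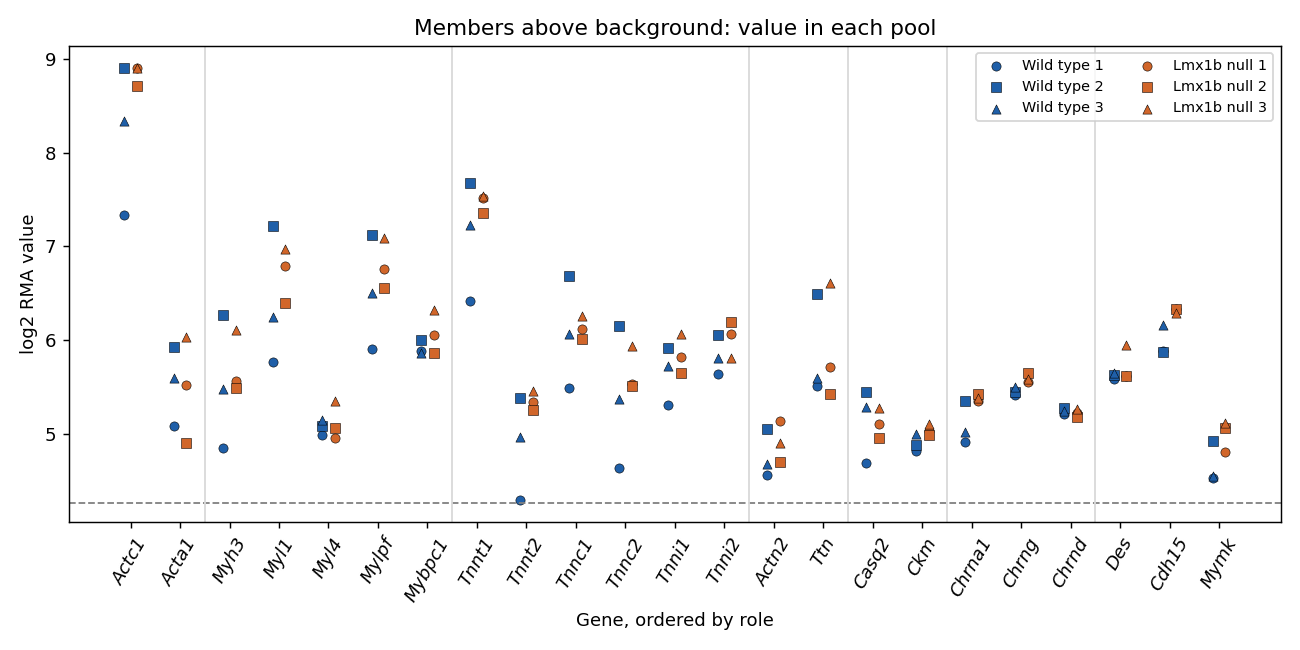
Log2 RMA value of the 23 genes above background (x axis, by role, grey lines between roles) in each of the 6 pools; blue marks are wild-type and orange marks null pools, and the dashed line is the background bound of 4.26. Wild-type pool 1 (blue circles) is the lowest of the 6 in 17 of the 23 genes.

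Of the Z-disc and giant protein genes, Ttn, the molecular spring titin, read 5.51, 6.49 and 5.60 against 5.71, 5.43 and 6.60, so 1 pool of each genotype stood apart from its own group. A dimmer Ttn probe set gave 4.52, 5.40 and 4.73 against 4.85, 4.40 and 5.52, with the same pools high. Actn2, the Z-disc alpha-actinin, read 4.56, 5.05 and 4.67 against 5.13, 4.70 and 4.90. Casq2, the cardiac-type calcium store protein calsequestrin, read 4.69, 5.45 and 5.28 against 5.10, 4.95 and 5.28, and Ckm, muscle creatine kinase, 4.82, 4.87 and 4.99 against 5.03, 4.98 and 5.10. The changes of Ttn, Actn2, Casq2 and Ckm were 0.05, 0.15, -0.03 and 0.14. None of the 4 genes had groups that were apart.

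Chrna1, the acetylcholine-binding subunit, read 4.91, 5.34 and 5.01 in wild-type pools and 5.34, 5.43 and 5.38 in null pools, a change of 0.29 (SE 0.11; unadjusted p = 0.0288, limma adjusted p = 0.479). Wild-type pool 2 met the lowest null pool. The fetal subunit gene Chrng read 5.41, 5.45 and 5.50 against 5.55, 5.65 and 5.58, a change of 0.14 (SE 0.06; limma adjusted p = 0.545), with every null pool above every wild-type pool by a small margin. The other Chrng probe sets, at means of 2.90 and 2.85 over the 6 arrays, were below the bound, with changes of 0.19 and 0.04. Chrnd, the delta subunit, read 5.21, 5.27 and 5.24 against 5.22, 5.17 and 5.26, a change of -0.02 (SE 0.06). Its 6 values lay closer together than those of any other gene of the 23.

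Membrane genes of the fusing muscle cell included the one with the smallest p-value of the set. Cdh15, the M-cadherin of myoblasts, read 5.88, 5.88 and 6.16 in wild-type pools and 6.33, 6.33 and 6.28 in null pools. All null values were above all wild-type values. With means of 5.97 ± 0.16 and 6.32 ± 0.03 (SD, n = 3 each) Cdh15 had a 1.27-fold difference (change 0.35, SE 0.09; unadjusted p = 0.00452, limma adjusted p = 0.3), which did not pass the threshold. Mymk, the fusion protein myomaker, read 4.52, 4.92 and 4.54 against 4.80, 5.06 and 5.11, a change of 0.33 (SE 0.13; unadjusted p = 0.0342, limma adjusted p = 0.492). Des, the muscle intermediate filament desmin, read 5.58, 5.63 and 5.64 against 5.61, 5.62 and 5.95, with null pool 3 alone high. The other Des probe set, at a mean of 3.56 over the 6 arrays, was below the bound.

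Over the whole set, 0 of 36 genes passed limma's threshold of an adjusted p of 0.05, where 0.0844% of all probe sets passed; the count was also 0 with an intensity trend, robust variances or array weights. At an unadjusted p under 0.05, 3 genes were higher in null pools (Cdh15, Chrna1 and Mymk) and 0 lower, against 5.22% and 4.2% of all probe sets. In Cdh15 and Chrng every null pool was above every wild-type pool, 2 of 36 genes, against 8.62% of all probe sets. Changes were above 0 in 29 genes and below 0 in 7, with a median of 0.14, while over all probe sets 55.5% were above 0 and the median was 0.01. The change was smaller than the span of the 3 wild-type pools in 29 of 36 genes (80.6%), a share that was 81.3% over all probe sets.

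**Figure D2:**
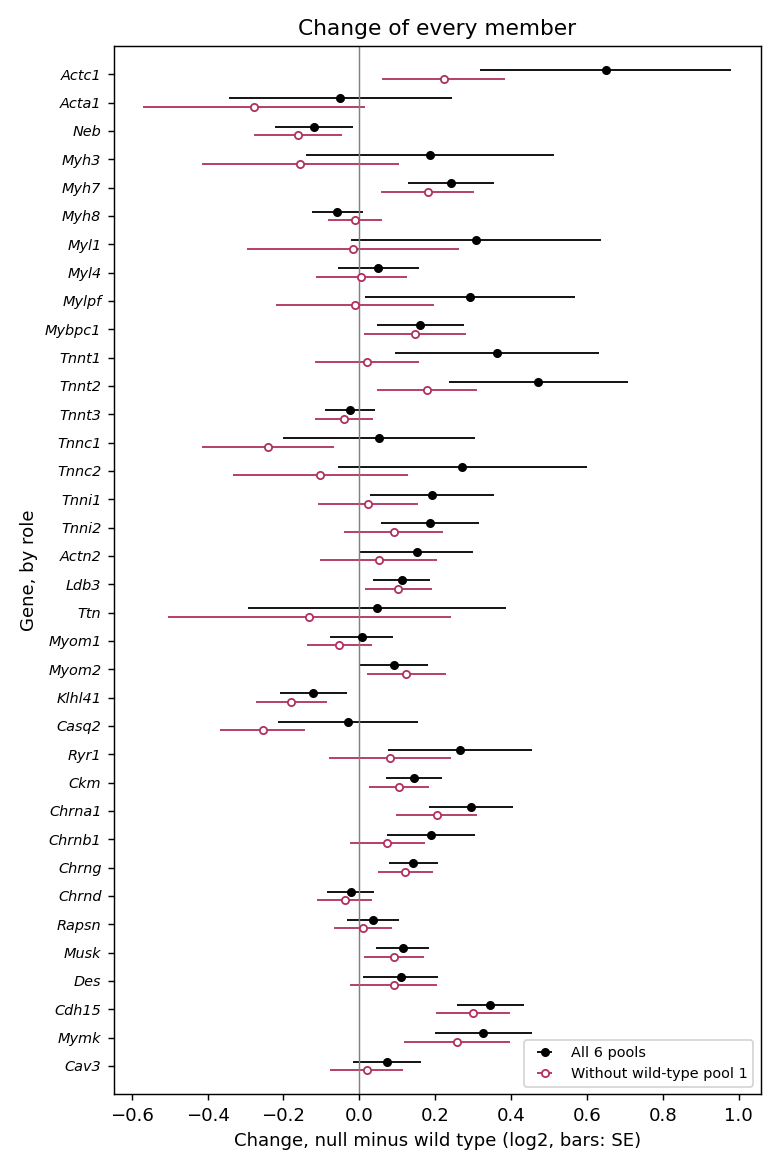
Log2 change of each of the 36 genes (y axis, by role) in null against wild-type pools (x axis) with SE bars, with all 6 pools (filled) and without wild-type pool 1 (open). Cdh15 stays at 0.30 without that pool, while Actc1 goes from 0.65 to 0.22 and Tnnt1 from 0.36 to 0.02.

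The direction of the contractile genes depended on which pools entered. Without wild-type pool 1 the median change of the 36 genes was 0.02, with 22 above 0 and 14 below, and the changes of Myh3, Myl1, Mylpf, Tnnc1, Tnnc2 and Ttn turned to -0.16, -0.02, -0.01, -0.24, -0.10 and -0.13. Only Cdh15 then had an unadjusted p under 0.05, 1 of 36 genes against 8.22% of all probe sets (change 0.30; limma adjusted p = 0.486). Without wild-type pool 2 the median was 0.24 and 9 genes had such a p, against 7.31% of all probe sets, among them Actc1 (1.00), Tnnt2 (0.72), Myl1 (0.71), Chrna1 (0.42) and Mymk (0.46). None of these passed after adjustment. Without null pool 3 the median was 0.095, with 23 above 0 and 13 below. The changes of Myh3, Tnnc1, Ttn, Myl4 and Des then turned to -0.006, -0.013, -0.299, -0.063 and -0.002. Across the leave-out settings Cdh15 kept a change of 0.30 to 0.44.

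The pools differed in a way shared by most contractile genes. Wild-type pool 1 held the lowest of the 6 values in 17 of the 23 genes above background (73.9%), against 23.8% of the 25951 probe sets above the same bound. Wild-type pool 2 was the highest wild-type pool in 18 of 23 (78.3%; 30.6% of probe sets), and null pool 3 the highest null pool in 18 of 23 (78.3%; 29.7%). Both held for 15 of 23 genes (65.2%), against 9.2% of probe sets. For each gene the deviations of the 6 pools from its mean were set against those of every other gene, and the mean coefficient between pairs was 0.578, or 0.538 when each genotype was centred on its own mean. Over all probe sets above background it was 0.006. These coefficients rest on only 6 pools, in which all genes of a pool come from 1 array, and are given as a description.

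**Figure D3:**
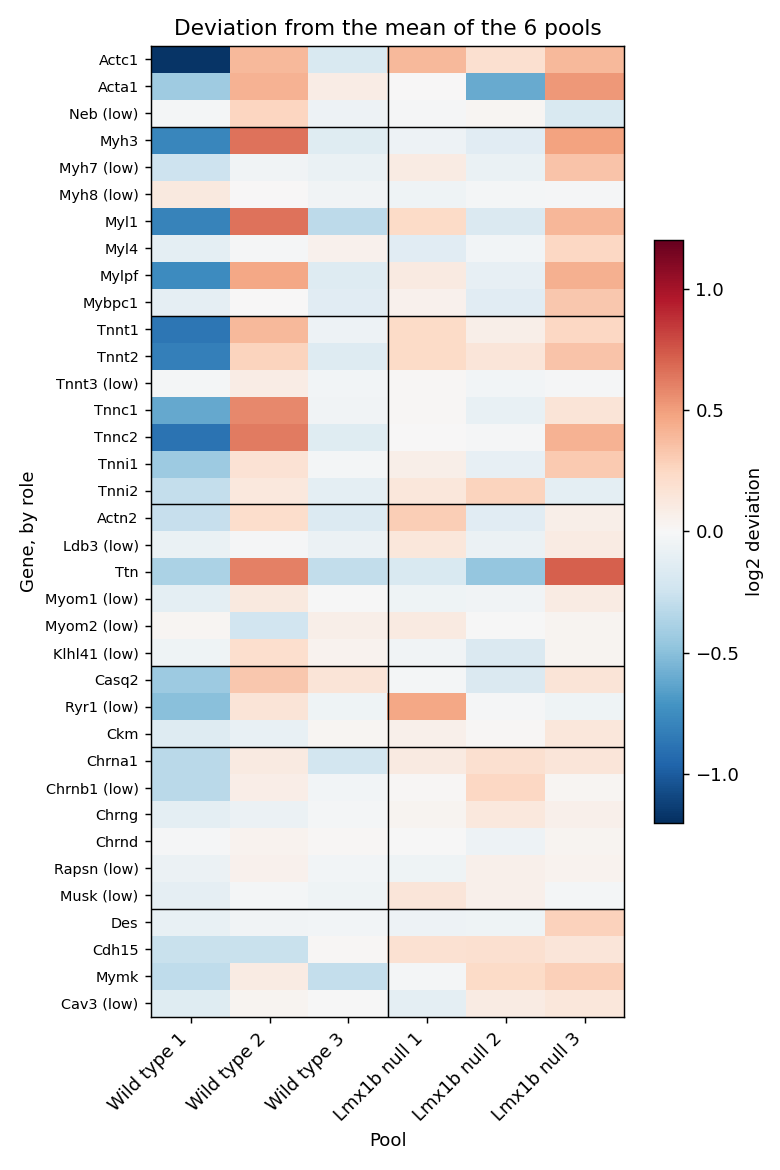
Heat map of the log2 deviation of each of the 36 genes (rows, by role; "low" marks genes not above background in every wild-type pool) from its mean over the 6 pools (columns). Most contractile genes above background are blue in wild-type pool 1 and red in wild-type pool 2 and null pool 3, while Chrnd and Chrng are pale throughout.

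Agreement was closest within the contractile and calcium genes. Among the 17 of them above background the mean coefficient was 0.677, among the 6 receptor and membrane genes 0.384, and between the groups 0.474; with each genotype centred on its own mean these were 0.676, 0.188 and 0.405. Tnni1 (0.75) and Mylpf (0.75) had the highest mean coefficient with the other genes, and Cdh15 (0.30), Tnni2 (0.34) and Chrng (0.35) the lowest. The coefficient is scaled to the spread of each gene. Within-genotype SDs of Chrnd (0.039) and Chrng (0.046) were under the 10th percentile of probe sets of like level (0.066 and 0.06). A low coefficient there does not show a different pattern over pools. The mean deviation of the 17 contractile genes was -0.55, 0.34 and -0.10 in the wild-type pools and 0.08, -0.09 and 0.31 in the null pools. That of the 6 receptor and membrane genes was -0.19, -0.02 and -0.09, then 0.04, 0.10 and 0.16. So the contractile deviations of the genotypes overlapped, with wild-type pool 2 highest of all. Those of the 6 receptor and membrane genes did not, but wild-type pool 2 (-0.02) and null pool 1 (0.04) were close. Between those pools Cdh15 went from 5.88 to 6.33 and Chrng from 5.45 to 5.55. Mymk, Chrnd and Des were lower in null pool 1, and Chrna1 was level. Only Cdh15 and Chrng had every null pool above every wild-type pool. The difference between these sets of genes was not tested.

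**Figure D4:**
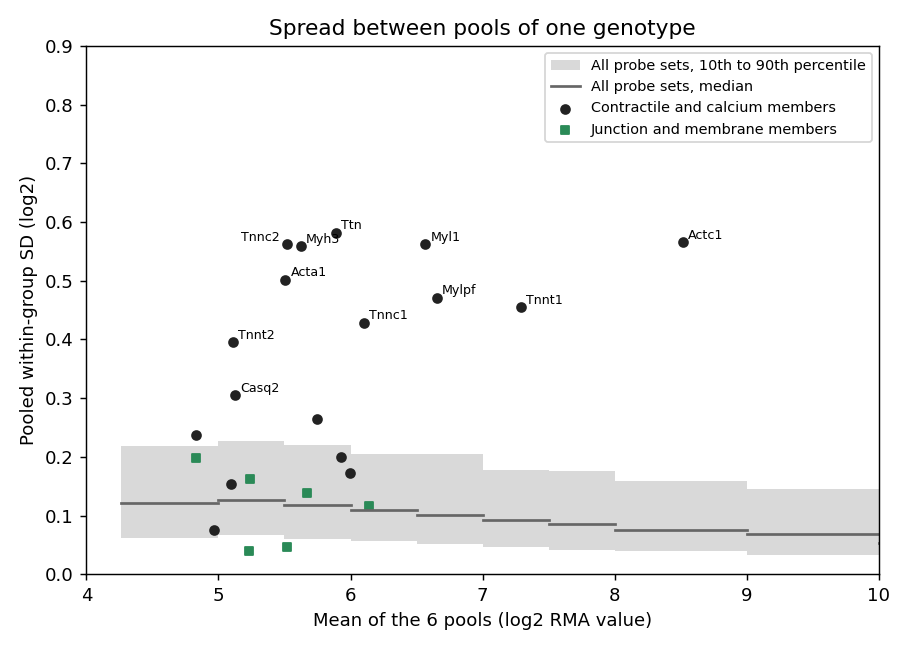
Pooled within-genotype SD (y axis, log2) against the mean of the 6 pools (x axis, log2 RMA value) for the 23 genes above background, with the median (line) and the 10th to 90th percentile (grey) of all probe sets above background in bins of level. In 13 of the 23 genes the SD lies above the grey band, and all 13 are contractile or calcium genes.

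The spread between pools of 1 genotype was wide for these genes. The median within-genotype SD of the 23 genes was 0.27, against 0.10 over all probe sets above background. In 13 of 23 genes it was above the 90th percentile of probe sets of like level. It was 0.58 in Ttn and between 0.56 and 0.57 in Actc1, Myl1, Tnnc2 and Myh3, and 0.04 in Chrnd and 0.05 in Chrng. The median span of the wild-type pools was 0.61, and that of the null pools 0.34.

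Myogenic regulators partly shared the order of pools. Of 14 matched regulators 11 were above background and 0 passed the threshold. Msc, the repressor musculin, read 7.14, 7.72 and 7.45 against 8.35, 8.05 and 8.27 (change 0.78; limma adjusted p = 0.155), and Lbx1, needed for the migration of muscle precursors, had a change of 0.32 (adjusted p = 0.371). Myog, the factor of differentiating myoblasts, read 6.60, 7.54 and 7.08 against 7.54, 7.33 and 7.67, and Myod1 6.47, 7.22 and 7.13 against 7.47, 7.32 and 7.57. In both wild-type pool 1 was the lowest, as in most contractile genes. Their changes were 0.44 for Myog (limma adjusted p = 0.563) and 0.51 for Myod1 (limma unadjusted p = 0.0233, adjusted p = 0.458). In Myod1, unlike Myog, every null pool was above every wild-type pool. Of the earlier factors, Pax3 read 6.55, 6.24 and 6.33 against 6.38, 6.38 and 6.35, and Myf5 read 6.27, 6.50 and 6.41 against 6.41, 6.49 and 6.34. Pax7, not above background in every wild-type pool, read 3.26, 4.15 and 4.28 against 4.58, 4.04 and 4.46. Wild-type pool 1 was the highest pool for Pax3 and the lowest for Myf5 and Pax7.

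Muscle genes outside the set were read from the same fit, in which 55.5% of all probe sets had changes above 0. Of 38 other sarcomere genes only 18 were above background. Changes were above 0 in 35 of the 38 (median 0.13) and 0 passed. The smallest p-values were those of the adult myosins Myh4 and Myh2, both below background at changes of 0.22. Of 25 other membrane, calcium and energy genes 17 had changes above 0 and 0 passed. Dmd, dystrophin, read 6.12, 5.99 and 5.96 against 5.33, 5.55 and 5.04 (change -0.71, SE 0.12; limma adjusted p = 0.135). Mymx, the fusion partner of myomaker, read 4.56, 5.47 and 4.95 against 5.71, 5.52 and 5.56 (change 0.60; adjusted p = 0.428). Of 12 other junction genes 8 had changes above 0 and 0 passed. The smallest p-values were those of Utrn, utrophin (-0.25, limma adjusted p = 0.521), and Dok7, which activates MUSK (0.16, adjusted p = 0.644). Wild-type pool 1 had the lowest mean deviation of the pools in each of these lists (-0.18, -0.09 and -0.14, in the order given). The counts of changes above 0 in these lists were not taken without that pool.

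Levels of other cell types and of sex-linked genes were read beside these results. Of 10 cardiac markers 3 were above background (Nkx2-5, Tnni3 and Mybpc3), and the atrial and ventricular genes Nppa, Myl7, Myl2 and Myh6 were below it in every pool. The mean level of the cardiac list was 3.69 to 3.76 in wild-type and 3.59 to 3.83 in null pools. Smooth muscle markers, 5 of 8 above background, had means of 5.0 to 5.26 and 5.14 to 5.25, with Acta2, an actin also known from embryonic skeletal muscle, at 8.30, 9.24 and 8.94 against 9.19, 9.03 and 9.24. Wild-type pool 1 was also the lowest pool for the means of the somite, neuron, Schwann cell and ectoderm lists, with deviations of -0.25, -0.19, -0.25 and -0.28. Of these lists 5 of 8, 5 of 11, 2 of 5 and 9 of 9 genes were above background, and their mean levels ran from 5.55 to 5.79, 4.26 to 4.46, 4.60 to 4.95 and 6.35 to 6.66 in wild-type pools. In null pools they ran from 5.82 to 5.97, 4.48 to 4.51, 4.75 to 5.0 and 6.64 to 6.75. The endothelial list went the other way in wild-type pool 1 (0.158), which was nearly level with wild-type pool 3 (0.154). Its changes were below 0 in 8 of 8 genes, with 0 past the threshold. The proximal limb list stood at 0.13, 0.23 and 0.23 in the wild-type and at -0.12, -0.31 and -0.16 in the null pools. Of its 5 matched genes, Emx2 (-0.97), Shox2 (-0.80) and Tbx18 (-0.40) had changes below 0. Meis1 (0.01) and Meis2 (0.18) had changes above 0. Only Shox2 passed the threshold (limma adjusted p = 0.0238). The part of these lists in the muscle result was not tested.

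Xist, the RNA expressed from the inactive X chromosome of female cells, read 4.68, 9.88 and 4.72 against 9.66, 9.16 and 10.79. The Y-linked gene Eif2s3y read 7.12, 6.00 and 6.90 against 5.86, 6.37 and 2.64. The pools thus differed in the sex of their embryos. The wild-type pools with low Xist, 1 and 3, had lower mean deviations over the 36 genes (-0.33 and -0.07) than any other pool (-0.02 to 0.18). In the 17 contractile and calcium genes above background, wild-type pool 3 (-0.095) was nearly level with null pool 2 (-0.088), whose Xist was high. Wild-type pool 1, with Xist like that of pool 3, was at -0.548. The part of sex in these deviations was not tested. When Xist was added to the model as a covariate, the median change of the 36 genes was -0.03, and 14 of 36 were above 0. At an unadjusted p under 0.05 there were then 7 genes, against 6.15% of all probe sets. Of these Myh3 (-0.60), Myl1 (-0.52), Tnnc1 (-0.54), Ttn (-0.72) and Klhl41 (-0.28) were lower, and Cdh15 (0.44) and Myom2 (0.26) higher. None passed after adjustment. No null pool had low Xist, so sex and genotype could be separated only in part.

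**Figure D5:**
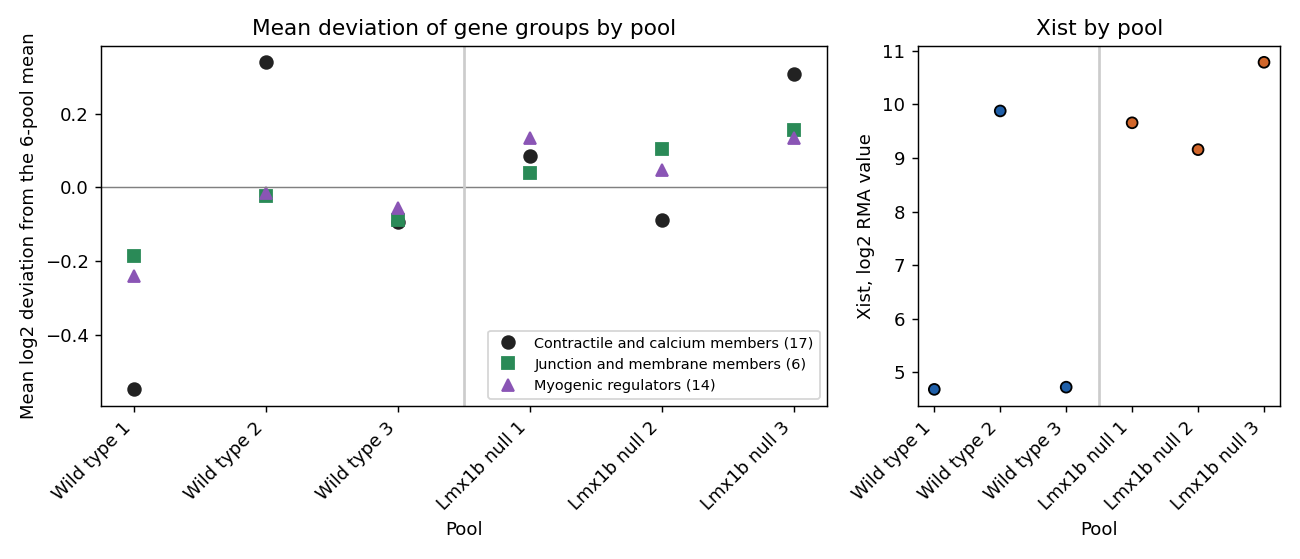
Left, mean log2 deviation from the 6-pool mean (y axis) of 17 contractile and calcium genes, 6 junction and membrane genes and 14 myogenic regulators in each pool (x axis); right, log2 RMA value of Xist in the same pools, blue for wild type and orange for null. The contractile genes are lowest in wild-type pool 1 (-0.55) and highest in wild-type pool 2 (0.34), and Xist is low in wild-type pools 1 and 3.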

How the data were processed

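The authors deposited log2 values, which per the submitters' processing notes came from RMA (background correction, quantile normalization between arrays and a summary of each probe set); no source used here gives its version, and the log2 scale was inferred from the range of the values. RMA compresses fold changes near the bottom of the range. After 64 control probe sets were left out, 45037 were tested with limma 3.58.1 in R 4.3.3 (lmFit and eBayes, no trend, two-sided, Benjamini-Hochberg over every probe set, threshold 0.05). Gene names came from the platform annotation, in which 34945 tested probe sets have 1 symbol, 932 several and 9160 none. Of 58 probe sets naming a member, the brightest per gene by its mean over the 6 arrays was used. The members, gene lists and settings were chosen with earlier results of these data known.

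By rule, every member is named; values of all 6 pools are given for members above background and for the largest change in each role, and other lists are named by their 2 smallest p-values. Further genes of those lists named with values were chosen after their values were seen. Same-numbered pools had deviations correlating at -0.239, -0.088 and -0.168, and the sample titles state no pairing, so pools were treated as unpaired. These coefficients cannot show whether same-numbered pools were handled together. Code was tested on simulated data. Alternatives covered the variance model, array weights, scaling, low values, probe set choice, the pool number as a block, the Xist level and leaving out each pool. Precision is limited by the 3 arrays per group; since a 3-against-3 exact permutation test cannot go below 0.1, limma p-values are given.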

Additional observations from a re-analysis of the deposited data

How the results depend on the processing

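With all alternatives, 0 genes of the set passed the threshold, also at an adjusted p under 0.1 and with the pool number as a replicate block (median change 0.143 with the block, as without it). With the block the smallest adjusted p in the set was 0.545, against 0.3 without it. With 1 pool left out the median change was 0.021 to 0.239, and with Xist in the fit the median was -0.033; the within-genotype SD of the mean deviation was 0.194. The number of genes above background was 15 with the bound at the median of all probe sets. The mean coefficient between genes was 0.399 over all 36 genes. Centring the arrays or repeating quantile normalization gave 28 genes above 0. Single genes were followed through every setting for the 23 above background and Ryr1, and those whose change turned its sign are given next, none of them past the threshold; the cause was not tested. With the Xist level in the fit they were Actc1 (-0.037), Myh3 (-0.599), Myl1 (-0.518), Myl4 (-0.011), Mylpf (-0.355), Tnnt1 (-0.189), Tnnt2 (-0.024), Tnnc1 (-0.542), Tnnc2 (-0.506), Tnni1 (-0.121), Actn2 (-0.133) and Ttn (-0.717), and among the genes not above background Myom1 (-0.13), Rapsn (-0.03) and Cav3 (-0.01) turned too. With array weights they were Myh3 (-0.061), Tnnc1 (-0.136) and Ttn (-0.173), and 25 of all 36 genes had changes above 0. With 1 pool left out the changes ran from -0.325 to 0.241 for Acta1, from -0.155 to 0.558 for Myh3, from -0.016 to 0.71 for Myl1, from -0.063 to 0.132 for Myl4 and from -0.012 to 0.597 for Mylpf. They ran from -0.241 to 0.352 for Tnnc1, from -0.103 to 0.653 for Tnnc2, from -0.299 to 0.361 for Ttn, from -0.255 to 0.124 for Casq2, from -0.045 to 0.0 for Chrnd and from -0.002 to 0.165 for Des.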
